A study of Mus musculus with 8 samples.

Results

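Microglia, the resident macrophages of the brain, were one of 21 cell types to which nuclei of the adult mouse hippocampus had been assigned in the snRNAseq data. They comprise all nuclei that carry the microglia label in the deposited annotation, 737 of 29425 nuclei (2.50%). The mutants were *Wls fl/-;Gfap-Cre* mice and the controls *Wls fl/+;Gfap-Cre* mice, so both genotypes carried the Cre transgene and 1 conditional *Wls* allele. Mutants carried in addition a null allele, and Cre from the *Gfap* promoter acts in a subset of neuroglial progenitors, which do not give rise to microglia. For each library both hippocampi of 1 adult mouse, male per the labels, were used, with 2 mutants and 2 controls for snRNAseq and 2 of each for bulk RNAseq. With 2 mice per genotype, the p-values below set a difference against the spread between these few mice. That spread was estimated with information shared over all genes tested, or over all cell types for shares of nuclei. Where 1 sample was left out, 1 mouse of its genotype remained. The spread then came from the other genotype alone, so p-values and calls of such fits are no support for a change.

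Microglia arise from yolk sac progenitors and not from the neuroglial lineage. They depend on CSF1R, the receptor for CSF1 and IL34, and on TGF-beta signals, and the transcription factors PU.1 (*Spi1*), IRF8 and SALL1 maintain their identity. In the resting state they express purinergic and fractalkine receptors (*P2ry12*, *Cx3cr1*), complement C1q and lysosomal hydrolases, and in injury or disease they can lower these and raise *Apoe*, *Cst7*, *Spp1* or interferon and inflammatory genes. *Wls* (Wntless) is the carrier protein that Wnt-producing cells need to secrete Wnt ligands.

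The 4 samples were very unequal in microglia, and this limited every comparison. Mutant replicate 1 held 13 microglia nuclei of 5304 nuclei, mutant replicate 2 held 332 of 10460, control replicate 1 held 105 of 6469 and control replicate 2 held 287 of 7192. Their summed UMIs were 21531, 685917, 181541 and 720614, and the median UMIs per microglia nucleus were 1701, 1958, 1632 and 2434. Mutant replicate 1 therefore carried few UMIs for most genes, and 1 UMI there stood for 46.4 UPM (a gene's UMIs in a cell type of a sample, per 1e+06 UMIs of that cell type in the sample). Results are given with this library and, where it mattered, without it. Every microglia nucleus had at least 1501 UMIs, and the median over all 737 was 2036 UMIs and 1322 genes, against 5802 UMIs over nuclei of all types. Of 29338 barcodes, 87 occurred in more than 1 library, and 2 microglia nuclei carried such a barcode.

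The 3 defining markers were present and highest in the labelled nuclei. *Csf1r* reached 604 UPM in mutant replicate 1, 1379 UPM in mutant replicate 2, 1449 UPM in control replicate 1 and 1371 UPM in control replicate 2. *Cx3cr1*, the fractalkine receptor, stood at 2183, 1719, 1526 and 1728 UPM, and *P2ry12*, the ADP receptor of microglial processes, at 975, 837, 716 and 774 UPM, in the same order of samples. By their mean over samples, all 3 genes were highest in microglia, at 36.0 times the next type for *Csf1r*, 6.12 times for *Cx3cr1* and 12.97 times for *P2ry12*. The next type for *Cx3cr1* was the set of nuclei labelled CP, at a mean of 292 UPM over the 2 samples that held any. At least 1 of the 3 markers was read in 720 of 737 microglia nuclei (97.7%, exact 95% interval 96.3 to 98.7). After every nucleus was thinned to 1500 UMIs the share was 97.2%. It was then 9.46% for astrocytes, 6.75% for oligodendrocytes, 7.90% for CA1 nuclei and 10.4% for granule cell nuclei. By gene, thinned *P2ry12* was read in 7.39% of granule cell nuclei and 1.68% of oligodendrocytes, and *Csf1r* in 0.347% and 0.654%. The part of free RNA in the reads of these other types was not tested. The unthinned shares in those types were 15.1%, 8.95%, 35.4% and 34.9%, at median depths of 2498, 2021, 8720 and 5844 UMIs.

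**Figure D1:**
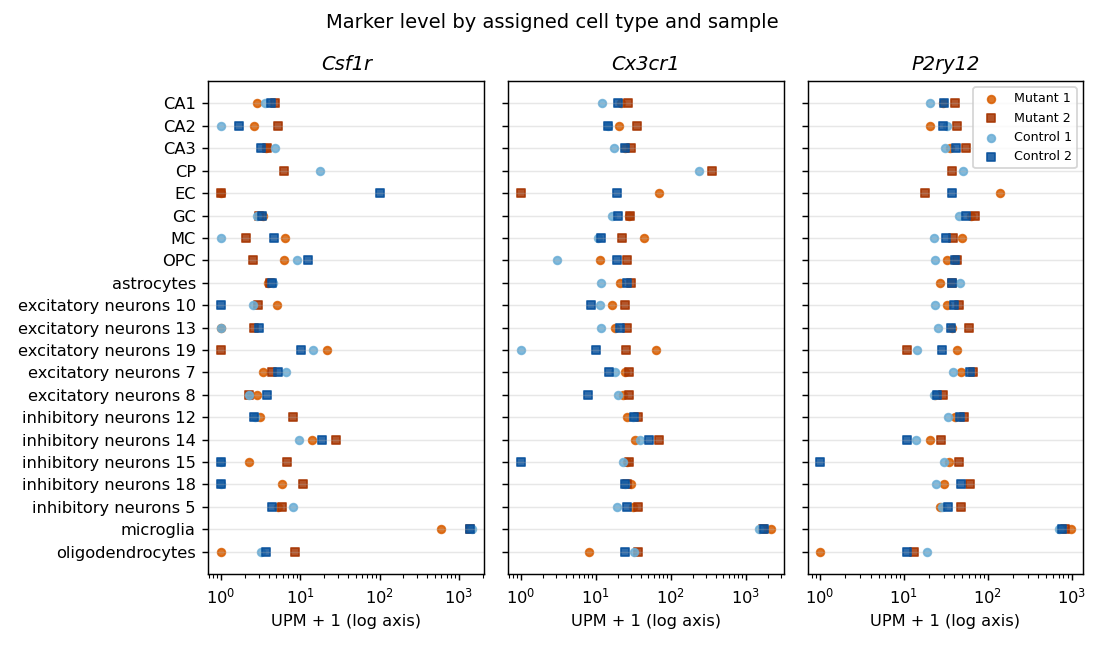
Level of 3 microglia markers (UPM + 1, log axis) in each assigned cell type, 1 point per snRNAseq sample, with no point where a sample held no nucleus of that type. Microglia lie above every other type for each gene; mutant replicate 1 is lowest for *Csf1r* (604 UPM) and highest for *Cx3cr1* (2183 UPM).

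A small set of nuclei went against the label. UMIs of 5 or more of 10 mural (pericyte and smooth muscle) genes were found in 5 microglia nuclei of mutant replicate 2 and 11 of control replicate 2, and in none of the other samples. In these 16 nuclei the pericyte genes *Vtn* and *Atp13a5* stood at 3919 and 3832 UPM, against 1.90 and 8.89 UPM in the other microglia nuclei, whereas *Csf1r* stood at 87.7 UPM, against 1401 UPM. Of the 17 nuclei with none of the 3 microglia markers, 14 had UMIs of 2 or more mural genes. The mural list summed to 46.4, 277, 11.0 and 624 UPM in mutant replicates 1 and 2 and control replicates 1 and 2, so 1 sample of each genotype held most of it. The defining markers of perivascular macrophages *Cd163*, *Pf4* and *Lyve1*, which would mark the macrophages of vessels and meninges, were at 0 UMIs in all 4 samples, as were the T cell gene *Cd3e* and the B cell gene *Ms4a1*. *Colec12* supplied most UMIs of the perivascular list, at 92.9, 207, 220 and 229 UPM, and *Mrc1* had 12 UMIs in all. *Ccr2*, the monocyte chemokine receptor, had 3 UMIs, all in mutant replicate 2. Sex genes fitted the male label in the microglia of all 4 mice, with *Xist* at 0, 0, 0 and 1 UMIs and *Ddx3y* at 1, 60, 29 and 75.

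Genes of other cell types were also read. UMIs of 2 or more of 10 pan-neuronal genes were found in 46.2%, 86.4%, 57.1% and 79.1% of microglia nuclei of mutant replicates 1 and 2 and control replicates 1 and 2. The pan-neuronal list summed to 3855, 2286, 2110 and 1496 UPM, which put both mutants above both controls. Of the astrocyte list, nearly all UMIs came from *Slc1a3*, the glutamate transporter GLAST, at 2415, 4212, 3636 and 3852 UPM in microglia; its mean there was 3529 UPM against 2736 UPM in astrocytes, so this gene did not separate the types. *Aldh1l1*, another astrocyte marker, was at 0. *Malat1*, a noncoding RNA retained in nuclei, read 52390, 45940, 29641 and 50568 UPM, lowest in control replicate 1.

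The 10 genes with the highest ratio of microglia level to that of any other type, among genes with a mean of at least 50 UPM in microglia, were *Glrp1*, *Siglech*, *Cd86*, *Lcp2*, *Tmigd3*, *Naip2*, *Hk3*, *Selplg*, *Rasal3* and *Ncf4*. These levels chose the genes and are a description without a test. *Siglech*, a sialic acid-binding receptor of microglia, had 1161, 1096, 997 and 876 UPM in mutant replicates 1 and 2 and control replicates 1 and 2, 141 times its level in the next type. *Selplg*, which codes for the P-selectin ligand PSGL-1, had 1718, 1489, 1691 and 1740 UPM, a ratio of 68.2. The costimulatory receptor gene *Cd86* had 372, 309, 308 and 286 UPM, a ratio of 121. The adaptor gene *Lcp2* (SLP-76) had 279, 332, 275 and 280 UPM, a ratio of 120. The remaining 6 had ratios from 66.6 (*Ncf4*, an NADPH oxidase subunit) to 189 (*Glrp1*). The genotypes overlapped for *Selplg*, *Lcp2*, *Glrp1*, *Naip2* and *Tmigd3*, while both mutants lay above both controls for *Siglech*, *Cd86*, *Rasal3* and *Ncf4* and below both for *Hk3*, against 15.4% and 18.8% of all genes. None of the 10 passed the test between genotypes described below.

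Over all 7123 genes that passed the filter, levels on the log10(UPM + 1) scale had a correlation of 0.94 between mutant replicate 2 and control replicate 2, the 2 deepest libraries, of 0.85 and 0.86 between each of these and control replicate 1, and of 0.49 to 0.55 between mutant replicate 1 and the others. These correlations are across genes, which are not independent, and they follow the depth of the libraries.

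PU.1 recognises a purine-rich GAGGAA core, and the letters GAGGAAGT, or ACTTCCTC on the other strand, were searched in RefSeq promoters (GRCm38.p6, 250 bases before to 50 after the start site). Of 81 microglia genes (the 4 microglia lists below and the 10 genes above), 61 had a promoter in the table, and 7 of these (11.5%) held the letters, against 3.69% of 27025 genes. A match describes the sequence and not a bound site. The windows shown are of *C1qc*, where the motif began 195 bases before the start site, and *Inpp5d*, where it began 20 bases before it. Of the 7 genes, only these had a window of 30 bases that lay wholly before the start site. Capitals mark the motif:
C1qc (chr4:136893091-136893120, minus strand): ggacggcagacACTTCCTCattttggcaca
Inpp5d (chr1:87620281-87620310, plus strand): gtttctataatGAGGAAGTtctgtgcagct
*C1qc* codes for a chain of the complement initiator C1q and *Inpp5d* for the phosphatase SHIP1, which restrains signals of immune receptors. In nuclei *C1qc* stood at 186, 311, 319 and 448 UPM and *Inpp5d* at 1904, 2655, 2484 and 2533 UPM in mutant replicates 1 and 2 and control replicates 1 and 2. Neither passed the test between genotypes below.

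The share of microglia among all nuclei did not separate the genotypes. It was 0.245% (exact 95% binomial interval 0.131 to 0.419) and 3.17% (2.85 to 3.53) in the mutants and 1.62% (1.33 to 1.96) and 3.99% (3.55 to 4.47) in the controls. Each genotype thus held 1 lower and 1 higher sample, and the mutant range enclosed control replicate 1. These intervals cover counting error only, which was far smaller than the difference between mice of 1 genotype. In edgeR's quasi-likelihood test on nuclei per type, microglia had a log2 fold change of -0.71 (SE 1.305) in mutants, with a Benjamini-Hochberg adjusted p = 0.816. Without mutant replicate 1 the value was 0.18 and without control replicate 2 it was 0.08, so the direction rested on single libraries. Granule cell nuclei numbered 90 and 463 in mutants and 2336 and 2007 in controls, which changes the total, so the share of glial nuclei (microglia, astrocytes, oligodendrocytes and their precursors) was also taken. It was 3.80% (2.04 to 6.41) and 11.7% (10.58 to 12.99) in mutants and 10.0% (8.28 to 12.02) and 13.5% (12.1 to 15.1) in controls, where mutant replicate 1 again stood below the other 3. The oligodendrocyte nuclei of the same samples numbered 73, 1112, 232 and 1029, so the library with fewest microglia also had fewest oligodendrocytes.

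**Figure D2:**
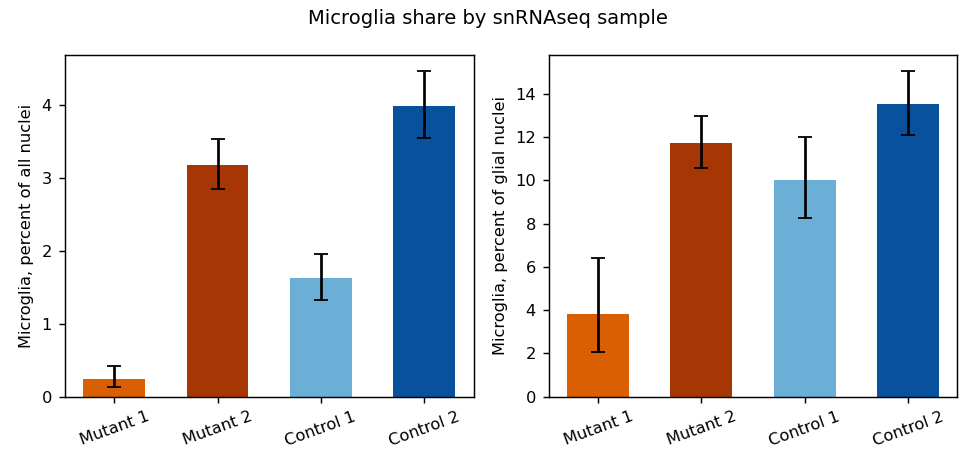
Microglia as percent of all nuclei (left) and of glial nuclei (right) in each snRNAseq sample; bars are the share of 1 sample and whiskers its exact 95% binomial interval. Mutant replicate 1 is lowest in both, at 0.245% and 3.80%, and the other mutant lies between the controls.

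Few genes were called between genotypes within microglia, and a gene that was not called is not thereby shown to be unchanged. On UMIs summed per mouse, edgeR's quasi-likelihood test called 3 of 7123 genes higher (0.0421%) and 1 lower (0.014%) in mutant microglia, at a fold change above 2 and an adjusted p below 0.05. DESeq2 called none; 228 genes had an unadjusted p below 0.05 in edgeR and 16 in DESeq2. With 2 samples against 2, both mutants lay above both controls for 15.4% of the genes and below both for 18.8%.

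The gene that fell was *Cst3*, which codes for cystatin C, a secreted inhibitor of cysteine proteases. It stood at 1533 and 1210 UPM in mutant microglia and 2517 and 3161 UPM in control microglia. Both mutants were below both controls, and the log2 fold change was -1.22 (SE 0.27, adjusted p = 0.0430 in edgeR). After thinning to 1500 UMIs, 78.9% of microglia nuclei of mutant replicate 2 had a *Cst3* UMI, against 96.2% and 93.7% in the controls. The log2 fold change was -1.22 without mutant replicate 1 (adjusted p = 2.25e-06), -1.12 without mutant replicate 2 (0.583), -1.43 without control replicate 1 (1.00), -0.96 without control replicate 2 (0.744) and -1.21 without the nuclei that held 2 or more mural genes (0.0527). It was -1.28 with no filter on low counts (0.612) and -1.19 among genes higher in microglia than in other nuclei (0.0792), so the call was lost at values between -1.43 and -0.96. *Cst3* was lower in astrocyte nuclei too, at 1799 and 1711 UPM in mutants and 4734 and 3778 UPM in controls (log2 fold change -1.23, SE 0.15, adjusted p = 0.000634), 1 of 29 genes of 11482 called lower there (0.253%), and in CA1 nuclei it read 49.8 and 43.1 UPM against 78.4 and 99.4 UPM. In bulk tissue it went the other way, at 596 and 587 CPM (counts per 1e+06 counts of the library) in mutants and 538 and 524 CPM in controls, with a log2 fold change of 0.18 (SE 0.05) and an adjusted p of 0.180 in edgeR. The part of RNA from other cells in the nuclear value was not tested.

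The genes called higher were *AY036118*, *Ttr* and *Syt6*. *AY036118*, a transcript annotated over ribosomal RNA sequence, had 46.4 and 316 UPM in mutants and 11.0 and 86.0 UPM in controls. *Ttr*, which codes for the thyroid hormone carrier of the choroid plexus, had 0 and 145 UMIs in mutants and 22 and 5 UMIs in controls. For both genes the genotypes overlapped, and the largest value came from mutant replicate 2. Their log2 fold changes were 2.09 (SE 0.38, adjusted p = 0.00376) and 2.32 (SE 0.49, adjusted p = 0.0348) in edgeR, and without mutant replicate 2 they turned to -0.67 and -6.89. The mutant that remained there had 1 UMI of *AY036118* and 0 of *Ttr*, so the sign for *Ttr* was set by a 0 count and its size was not measured. *AY036118* was 1.498 (adjusted p = 1.00) without control replicate 1, and *Ttr* was 0.60 (adjusted p = 1.00) without control replicate 2 and 2.31 (adjusted p = 0.257) without nuclei of vascular or blood lists. Both followed the library in other types: *Ttr* read 0, 187, 67.9 and 11.6 UPM in astrocytes of mutant replicates 1 and 2 and control replicates 1 and 2, and *AY036118* read 43.0, 299, 13.4 and 87.3 UPM. Nuclei labelled CP, in which *Ttr* was highest, numbered 0, 184, 9 and 0 in those samples, the same libraries in which microglia nuclei had most *Ttr*. *Syt6*, which codes for a synaptotagmin, had 1 and 65 UMIs in mutants and 4 and 12 UMIs in controls, with a log2 fold change of 2.30 (SE 0.50, adjusted p = 0.0425). The *Syt6* call was lost without control replicate 1 (2.41, adjusted p = 0.0746), without control replicate 2 (2.07, adjusted p = 0.985), with no filter on low counts (2.28, adjusted p = 0.102), without nuclei of vascular or blood lists (2.22, adjusted p = 0.121) and in DESeq2 (1.96, adjusted p = 1.00), and without mutant replicate 2 it could not be tested. It was also read in the nuclei labelled inhibitory neurons 5, at 55.5, 92.2, 78.6 and 89.2 UPM, where the genotypes overlapped.

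Next in order of p were genes that did not pass with TMM scaling. With RLE scaling 4 of them did, *Ubb* (adjusted p = 0.0278), *Apoe* (0.0399), *Cntnap2* (0.0239) and *Gm42418* (0.00798). *Ubb*, a polyubiquitin gene, had 186 and 74.4 UPM in mutants and 237 and 243 UPM in controls (log2 fold change -1.56, SE 0.37, adjusted p = 0.0832 in edgeR). *Apoe*, the main lipid carrier of brain and a gene that disease-associated microglia raise, had 92.9 and 80.2 UPM in mutants and 154 and 275 UPM in controls (-1.50, SE 0.37, adjusted p = 0.114). Both mutants lay below both controls for each. *Apoe* read 1053 UPM in the 16 nuclei with mural genes and 157 UPM in the other microglia nuclei, and without nuclei with 2 or more mural genes its value was -1.29 (adjusted p = 0.385). *Apoe* had 283 UMIs in all microglia nuclei and was far higher in astrocytes, where it read 2556 and 2121 UPM in mutants and 3478 and 6770 UPM in controls, and the part of free RNA in its microglia value was not tested. *Cntnap2*, a neuronal adhesion gene, had 836 and 195 UPM in mutants and 105 and 84.7 UPM in controls (1.59, SE 0.38, adjusted p = 0.0832). The *Cntnap2* value was 0.94 without the 5% of nuclei with most UMIs, 0.97 without nuclei with mural genes and 2.96 without mutant replicate 2. *Meg3*, a noncoding RNA that is abundant in neurons, had 650 and 553 UPM against 275 and 237 UPM (1.12, SE 0.29, adjusted p = 0.194). Of the 10 pan-neuronal genes, all tested and none called, 8 had a positive and 2 a negative log2 fold change, with a median of 0.61 against -0.04 over all genes; without mutant replicate 1 the median was 0.33. Without mutant replicate 1, only the controls gave a spread between mice, so no call is drawn from that fit. Its log2 fold changes were -1.50 for *Apoe*, -1.68 for *Ubb*, -2.70 for the pericyte gene *Vtn* and 1.14 for *Meg3*. *Ubb* was -0.60 without mutant replicate 2, and *Apoe* was -0.87 without control replicate 2.

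**Figure D3:**
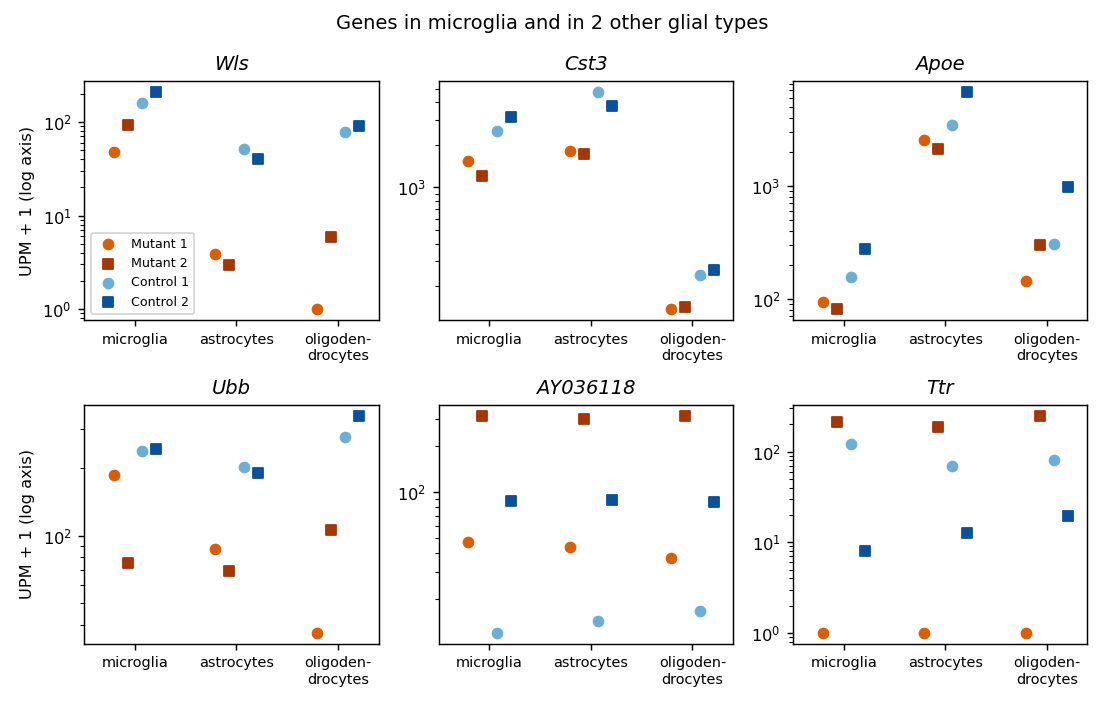
Levels (UPM + 1, log axis) of 6 genes in microglia, astrocytes and oligodendrocytes, 1 point per snRNAseq sample. *Wls* and *Cst3* are lower in both mutants in each type, and *Wls* is lower by more in astrocytes and oligodendrocytes than in microglia; *AY036118* and *Ttr* follow the library in all 3 types.

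*Wls* itself was read in microglia of both genotypes. It had 1 and 63 UMIs in mutants (46.4 and 91.8 UPM) and 29 and 150 UMIs in controls (160 and 208 UPM), with both mutants below both controls. The log2 fold change was -1.11 (SE 0.36), which did not pass after adjustment over all genes (adjusted p = 0.705 in edgeR). By the genotypes alone, a cell without recombination carries 1 intact copy in mutants and 2 in controls; whether Cre was active in microglia was not measured. In astrocytes *Wls* read 2.87 and 1.99 UPM in mutants against 51.0 and 38.8 UPM in controls (-4.28, SE 0.45, adjusted p = 0.000227), and in oligodendrocytes 0 and 4.93 UPM against 76.2 and 88.7 UPM (-4.14, SE 0.41, adjusted p = 6.87e-05), where 0.0892% of genes were called lower. The genotype effect on *Wls* in microglia was less negative than that in astrocytes by 3.03 on the log2 scale (SE 0.62, adjusted p = 0.00945 in edgeR's test of the interaction) and than that in oligodendrocytes by 3.02 (SE 0.59, adjusted p = 0.00306). It was the 1 gene of 10689 (0.00936%) and of 9505 (0.0105%) that passed in these tests. Neither call was made without control replicate 1, and the one against oligodendrocytes was not made without mutant replicate 2 or control replicate 2 either. Thinned to 1500 UMIs, 12.95% of microglia nuclei of mutant replicate 2 (9.53 to 17.0) had a *Wls* UMI, against 20.0% (12.8 to 28.9) and 27.2% (22.1 to 32.7) in the controls; mutant replicate 1 had 1 of 13.

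The genes that define microglia were grouped by role into receptors, transcription factors, signalling genes, and lysosome and complement genes, 73 genes of which 67 were tested. None was called. Of the 67, 20 had a positive and 47 a negative log2 fold change, with a median of -0.20 against -0.04 over all genes. An unadjusted p below 0.05 in edgeR was found for 5, all negative, against 228 of all 7123 genes in either direction. Both mutants were below both controls for 21 of the 67 and above both for 6, against 18.8% and 15.4% of all genes.

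Among receptors, 22 were tested, with a median of -0.20. *P2ry12* had a log2 fold change of 0.15 (SE 0.27), *Cx3cr1* of 0.094 (SE 0.26) and *Csf1r* of -0.35 (SE 0.28), with only *P2ry12* higher in both mutants than in both controls. The *Csf1r* value rested on 13 UMIs in mutant replicate 1, where it was 604 UPM against 1379 UPM in the other mutant. *Tgfbr1*, a receptor for TGF-beta and the receptor gene with most UMIs, had 2229 and 3307 UPM in mutants and 3404 and 2900 UPM in controls, and the phagocytic receptor gene *Mertk* had 1161 and 2696 UPM against 2468 and 2360 UPM, both overlapping. *Fcer1g*, the common chain of Fc receptors, had 92.9 and 139 UPM in mutants and 209 and 239 UPM in controls (-0.78, SE 0.34). Without mutant replicate 1 the median of the receptors was 0.09, so the sign of that list depended on this library.

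The 12 transcription factors tested had a median of -0.01. *Mef2c* had 2554 and 2187 UPM in mutants and 2055 and 2116 UPM in controls, and *Mef2a* had 1579 and 2217 UPM against 1939 and 1771 UPM. *Fli1* and *Ikzf1*, hematopoietic regulators, had 1208 and 1216 UPM against 892 and 1107 UPM, and 882 and 1144 UPM against 1151 and 1118 UPM. *Spi1*, which codes for PU.1, had 325 and 378 UPM against 424 and 329 UPM, and *Sall1* had 325 and 363 UPM against 336 and 279 UPM. *Mef2c* and *Fli1* were higher in both mutants than in both controls, and the others overlapped. Of the 20 signalling genes, with a median of -0.20 (-0.080 without mutant replicate 1), *Inpp5d*, given above, *Dock8* and *Lyn* had most UMIs. *Dock8*, an activator of small GTPases in leukocytes, had 1347 and 1451 UPM in mutants and 1735 and 1550 UPM in controls, and the Src family kinase gene *Lyn* had 2044 and 1524 UPM against 1559 and 1543 UPM. Neither passed the test.

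Lysosome and complement genes had the lowest median of the 4 microglia lists. All 13 that were tested had a negative log2 fold change, with a median of -0.46, and 8 had both mutants below both controls, against 18.8% of all 7123 genes, of which 3841 had a negative value. None was called, and the median was -0.46 without mutant replicate 1 as well. The C1q chain gene *C1qa* had 279 and 364 UPM in mutants and 435 and 691 UPM in controls (-0.76, SE 0.30), and the cathepsin gene *Ctss* had 743 and 500 UPM against 854 and 777 UPM (-0.62, SE 0.28). *Lgmn*, a lysosomal protease gene, had 372 and 866 UPM against 931 and 920 UPM (-0.36, SE 0.28). Both mutants lay below both controls for these 3 genes, at adjusted p-values of 1.00 in edgeR. *C1qb*, at 186 and 296 UPM against 259 and 544 UPM, overlapped. *C3* was at 0 UMIs in all 4 samples.

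**Figure D4:**
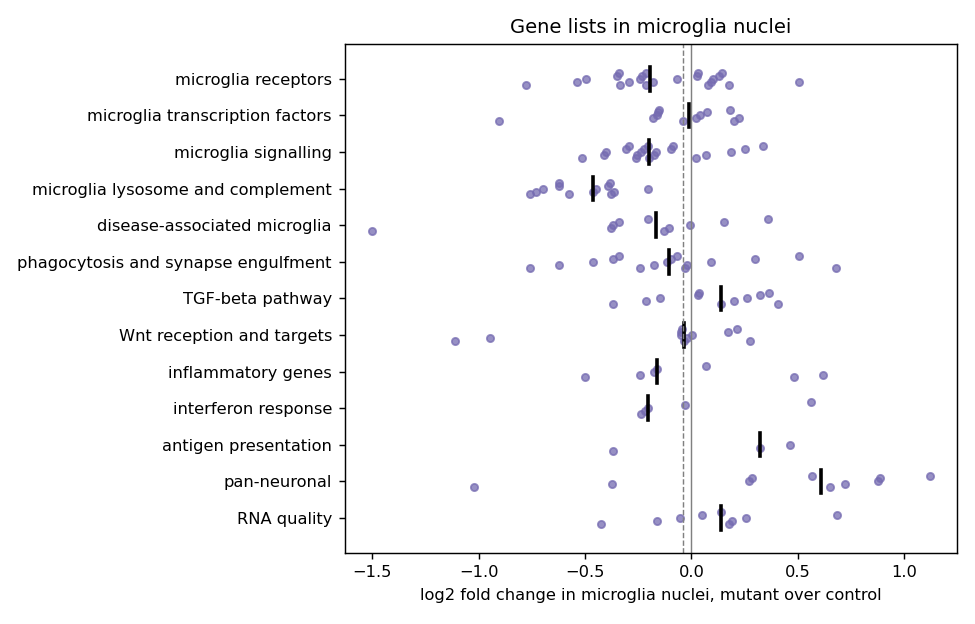
Log2 fold change (mutant over control) of each tested gene in microglia nuclei by gene list, 1 point per gene; black bars are list medians, the solid line is 0 and the dashed line the median of all 7123 genes (-0.04). The lysosome and complement genes all lie left of 0 (median -0.46) and most pan-neuronal genes lie right of it (median 0.61).

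The lists for activated states held both abundant genes and genes with few or no UMIs. UMIs of 2 or more disease-associated genes were found in 76.9%, 76.8%, 70.5% and 88.5% of microglia nuclei of mutant replicates 1 and 2 and control replicates 1 and 2, and of 2 or more inflammatory genes in 38.5%, 48.5%, 42.9% and 58.2%. Both shares were highest in control replicate 2, the sample with most UMIs per microglia nucleus, and the genotypes overlapped for both lists. Of 25 disease-associated microglia genes, 10 passed the filter and none was called, with a median of -0.17. Of this list *Fth1* had most UMIs, at 372 and 362 UPM in mutants and 413 and 365 UPM in controls. *Gpnmb* and *Ch25h* were at 0, and *Cst7*, *Spp1*, *Lgals3* and *Igf1* had 1 to 3 UMIs in all 737 nuclei. Among 18 inflammatory genes in the files, *Il1b*, *Ccl2* and *Cxcl10* were at 0 and *Ccl4* had 3 UMIs, while *Nfkb1*, a subunit of NF-kappaB, read 325 and 378 UPM in mutants and 419 and 394 UPM in controls. Of 18 interferon response genes *Ifit1*, *Ifit2*, *Ifit3* and *Rsad2* were at 0. *Trim30a* had the highest mean UPM, at 139, 70.0, 116 and 72.2 UPM in mutant replicates 1 and 2 and control replicates 1 and 2. The 139 UPM stood for 3 UMIs. None of the 7 inflammatory and 5 interferon genes tested was called, with medians of -0.16 and -0.20. UMIs of 2 or more interferon genes were found in 11.7% of microglia nuclei of mutant replicate 2 (8.49 to 15.7) and in 7.62% (3.35 to 14.5) and 14.3% (10.5 to 18.9) of those of the controls, at median depths over all microglia of 1958, 1632 and 2434 UMIs. The MHC class II gene *H2-Aa* had 6 UMIs and *H2-Eb1* none, and *B2m*, the light chain of MHC class I, had 46.4 and 101 UPM in mutants and 132 and 119 UPM in controls. The 10 proliferation genes had 31 UMIs in all, and 1 of 737 nuclei (0.136%, 0.00344 to 0.754) had UMIs of 2 or more of them; how many dividing nuclei would show this at such depth is unknown. Immediate early and dissociation genes summed to 186, 367, 336 and 325 UPM, with *Fos* at 0.

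For phagocytosis and synapse engulfment, 16 genes were tested and none called (median -0.10). *Elmo1*, which acts with DOCK proteins in engulfment, had 4041 and 3473 UPM in mutants and 3636 and 3715 UPM in controls. The TGF-beta pathway had 11 tested genes, 8 positive and 3 negative (median 0.14), none called; *Tgfbr2*, the other chain of the receptor, had 464 and 555 UPM against 463 and 541 UPM, and *Ski*, a repressor of the pathway, 372 and 583 UPM against 347 and 448 UPM. Of the 32 genes of Wnt reception and targets, 11 were tested and none called (median -0.04). *Apc*, a part of the beta-catenin destruction complex, had 557 and 402 UPM against 408 and 322 UPM, and the Wnt effector *Tcf7l2* had 418 and 386 UPM against 413 and 377 UPM. The Frizzled receptor genes *Fzd1*, *Fzd2*, *Fzd5*, *Fzd8*, *Fzd9* and *Fzd10*, had 1 to 3 UMIs in all microglia nuclei.

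Ligands that act on microglia came from several types. *Il34*, a ligand of CSF1R, was highest in the nuclei labelled inhibitory neurons 14, at a mean of 433 UPM, followed by EC at 114 UPM and MC at 84.5 UPM. The nuclei labelled inhibitory neurons 14 had a median of 2287 UMIs, against 5805 to 7116 in the other sets labelled inhibitory neurons. Whether they are neurons was not tested. *Csf1*, the other ligand, was highest in oligodendrocytes, at 100 and 126 UPM in mutants and 76.2 and 74.2 UPM in controls. *Cx3cl1*, the ligand of CX3CR1, was highest in neurons, with 127 and 136 UPM in mutant and 142 and 161 UPM in control CA1 nuclei, and lowest in microglia. *Tgfb1* was highest in microglia themselves, at 511 and 367 UPM in mutants and 325 and 332 UPM in controls (log2 fold change 0.20, SE 0.30). *Pros1*, a ligand of MERTK, was also highest in microglia, at 372 and 332 UPM against 347 and 389 UPM. The 4 ligand genes tested in microglia gave no call.

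Bulk RNAseq played no part in assigning the nuclei. In the labels, replicate 2 of each genotype carries the same sample name in both assays, while its sex genes differed between them as given here and above, so these libraries were not of the same mouse. Fewer microglia and less RNA per microglial cell cannot be told apart in bulk tissue. The libraries held 59786144 and 79576119 rounded counts in mutants and 56002302 and 66684464 in controls. Sex genes went against the male label in replicate 2 of both genotypes: *Xist* was at 1.42 and 230 CPM in mutants and 1.05 and 521 CPM in controls, and *Ddx3y* at 53.6 and 0.352 CPM against 58.7 and 0.345 CPM. The split was the same in both genotypes. Other cell types of the tissue moved in the same libraries: the choroid plexus list had 10 of 10 genes higher in both mutants than in both controls (median 3.76, none called) and the granule cell list 12 of 12 lower (median -1.83, 8 called), against 22.4% of all bulk genes higher, 28.3% lower and 0.198% called lower. Medians were 0.52 for the pyramidal list, 0.32 for the oligodendrocyte list and 0.25 for the mural list, with 9, 9 and 8 of 10 genes positive and none called. Their part in the bulk values of microglia genes below was not tested. *Csf1r* had 79.2 and 75.8 CPM in mutants and 81.7 and 74.8 CPM in controls (log2 fold change 0.01, SE 0.06). *Cx3cr1* had 36.9 and 32.9 CPM against 39.2 and 38.0 CPM (-0.12, SE 0.08), and *P2ry12* had 26.0 and 24.6 CPM against 29.1 and 27.5 CPM (-0.14, SE 0.08). The last 2 genes had both mutants below both controls, and none of the 3 passed (adjusted p from 0.432 to 0.961 in edgeR). *Wls* itself had 3.61 and 6.86 CPM against 13.3 and 13.1 CPM (-1.31, SE 0.30, adjusted p = 0.117).

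At a fold change above 3 and an adjusted p below 0.05, 4 of 20687 genes were called higher (0.0193%) and 41 lower (0.198%) in mutant bulk tissue, and none of these was among the 71 tested genes of the 4 microglia lists. The 71 split into 35 positive and 36 negative log2 fold changes, with a median of -0.01 against 0.01 over all genes. DESeq2 called none of them either. At an unadjusted p below 0.05 in edgeR 5 were higher and 4 lower, against 3889 of all 20687 genes in either direction. Both mutants were above both controls for 12 and below both for 15 of the 71, against 22.4% and 28.3% of all genes. Receptors had a median of -0.10, transcription factors of -0.01 and signalling genes of -0.04. Lysosome and complement genes, which leaned lower in nuclei, had a median of 0.20 in bulk, with 13 of 15 positive. Of these *Lgmn* had 76.4 and 83.2 CPM in mutants and 68.9 and 63.5 CPM in controls (0.29, SE 0.06, adjusted p = 0.114), and *C1qa* had 21.8 and 17.7 CPM against 18.5 and 17.7 CPM. Cathepsins and *Lgmn* are also expressed by other cells of the tissue.

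The list gene with the lowest p in bulk was *Mef2c*, at 75.5 and 72.3 CPM in mutants and 146 and 139 CPM in controls (-0.93, SE 0.06, adjusted p = 0.0135), which stayed under the threshold of 3-fold. Outside microglia, *Mef2c* was highest in the nuclei labelled inhibitory neurons 12, at a mean of 918 UPM, and it read 397 UPM in granule cell nuclei. The part of other cell types in the bulk value was not tested. In microglia nuclei it was 2554 and 2187 UPM in mutants and 2055 and 2116 UPM in controls. The next with a negative value were *Blnk*, an adaptor of immune receptors, at 4.22 and 4.50 CPM against 7.91 and 7.47 CPM (-0.80, SE 0.13, adjusted p = 0.0730), and *Plcg2*, a phospholipase of the same pathway, at 5.13 and 4.56 CPM against 7.37 and 7.77 CPM (-0.62, SE 0.14, adjusted p = 0.118). Neither passed. In microglia nuclei *Blnk* had 418 and 560 UPM in mutants and 545 and 622 UPM in controls, and *Plcg2* 743 and 503 UPM against 413 and 466 UPM, so for *Plcg2* both mutants lay above both controls in nuclei.

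**Figure D5:**
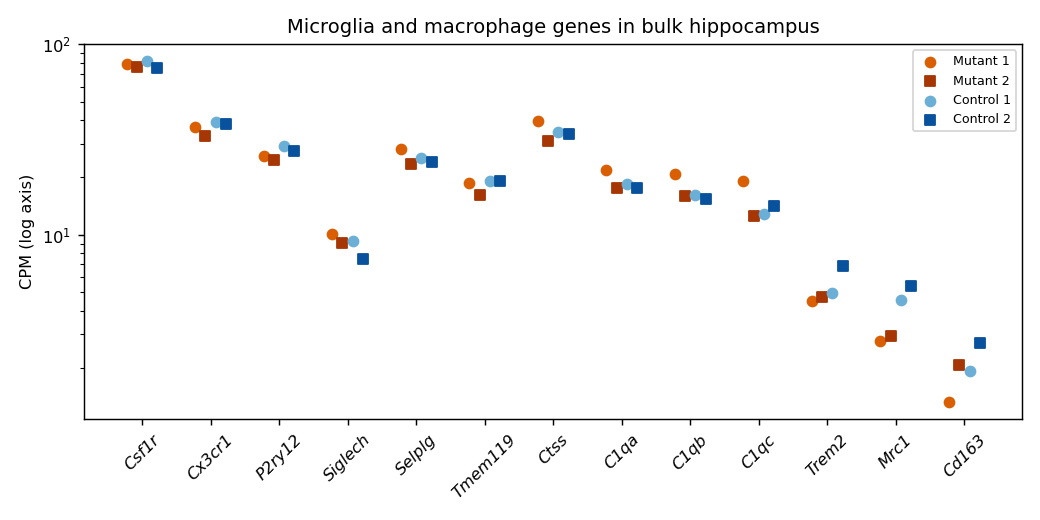
CPM (log axis) of 11 microglia genes and 2 genes of perivascular macrophages in bulk hippocampus, 1 point per library. The 4 points of *Csf1r* lie between 74.8 and 81.7 CPM, and those of *Mrc1* lie lower in both mutants (2.78 and 2.95 CPM) than in both controls (4.54 and 5.38 CPM).

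In bulk, the perivascular macrophage list had 8 of 10 genes negative, a median of -0.61 and none called, where 9943 of all 20687 genes were negative. *Mrc1*, the mannose receptor of those macrophages, had 2.78 and 2.95 CPM in mutants and 4.54 and 5.38 CPM in controls (-0.77, SE 0.17, adjusted p = 0.113). The disease-associated list had 18 of 23 tested genes positive, a median of 0.27 and none called. *Apoe* had 1070 and 1027 CPM against 925 and 910 CPM (0.22, SE 0.06, adjusted p = 0.148 in edgeR), opposite in sign to its value in microglia nuclei. The 2 values are unlike measures, since bulk covers RNA of all cells, among them astrocytes with far more *Apoe*. In astrocyte nuclei, as given above, *Apoe* was lower in both mutants than in both controls as well. *Spp1* had 2.26 and 4.59 CPM against 1.29 and 1.60 CPM (1.26, SE 0.37, adjusted p = 0.175), and in microglia nuclei it had 2 UMIs in all.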

How the data were processed

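The authors mapped snRNAseq reads with Cell Ranger 3.1.0 against mm10 transcripts with introns included, clustered and named the nuclei, and deposited for each retained nucleus the UMI counts per gene, without normalization, and its cell type. For bulk RNAseq they aligned reads to mm10 with RSEM 1.3.0 and Bowtie2 2.2.9 (versions per the submitters' processing notes) and deposited expected counts per gene; these were rounded to whole numbers here. A deposited normalized bulk matrix was not used.

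Nuclei labelled microglia were taken as annotated. Their UMIs were summed per mouse and compared with edgeR 4.0.16 (R 4.3.3; filterByExpr, TMM, quasi-likelihood test, Benjamini-Hochberg adjustment over all genes tested) at a fold change above 2 and an adjusted p below 0.05; bulk counts were compared likewise at a fold change above 3. UPM and CPM are plain shares of the library per 1e+06, and log2 fold changes are from the TMM-scaled fit. Standard errors were derived from the estimate and its F statistic. Cell type shares were tested in edgeR on nuclei per type, with the sample's nuclei as library size. The interaction of genotype and cell type was fitted with the sample as a block. DESeq2 1.42.0, RLE scaling, no filter, a replicate block, leaving out each sample and other selections of nuclei were alternatives; leaving out nuclei with 2 or more mural genes and keeping only nuclei with a UMI of *Csf1r*, *Cx3cr1* or *P2ry12* were chosen after seeing the data. Nuclei in the files have at least 1500 UMIs. How doublets were treated is not given in the sources used here and no doublet caller was run; the 5% of microglia nuclei with most UMIs in each sample were left out in an alternative. Intervals are exact Clopper-Pearson at 95%. Thinning and descriptions used Python 3.11.15, numpy 2.4.6, pandas 2.3.3 and scipy 1.17.1.

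Replicate numbers are shared by the genotypes, but 2 pairs and a correlation of deviations of 0.046 (microglia) and 0.11 (bulk) do not show that they pair the mice, although in bulk the number coincides with the level of sex-linked genes. The tests were run on simulated data with known changes first. The members, gene lists and tests were chosen with earlier results of these data known. Named genes are the 3 markers, *Wls*, *Xist* and *Ddx3y*, the 10 genes by ratio, per list up to 4 members with the highest mean UPM, and for each test up to 5 rises and falls that passed or had the lowest p; other list genes named were chosen after their values were seen. *Irf8*, *Itgam*, *Clec7a*, *Myd88*, *Ccl3*, *Ly6c2*, *Gzma*, *Cd2* and *Sp5* were not analysed here in nuclei. 1 gene of the lists is not reported here.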

Additional observations from a re-analysis of the deposited data

Results flagged for a closer look

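The genotype effect on *Wls* differed between microglia and both other glial types tested: its log2 fold change was less negative in microglia by 3.03 than in astrocytes and by 3.02 than in oligodendrocytes, in edgeR's test of the interaction (adjusted p = 0.00945 and 0.00306). Each genotype had 2 mice, and mutant replicate 1 supplied 1 *Wls* UMI in microglia. Neither difference passed without control replicate 1, and the one against oligodendrocytes did not pass without mutant replicate 2 or control replicate 2 either.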

How the results depend on the processing

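The limits lie in 2 mice per genotype and in mutant replicate 1, whose 13 microglia nuclei held 21531 UMIs. The log2 fold change of the microglia share, -0.71, became -1.17 without granule cells in the total, -0.55 among glial nuclei and -1.46 with the replicate number as a block, none past the threshold; leaving out 1 sample gave -3.51 to 0.18, turning its sign without mutant replicate 1 (0.18) and without control replicate 2 (0.08). Against 3 genes higher and 1 lower, there were 5 and 3 with RLE scaling, 0 and 0 with DESeq2, 4 and 0 with the replicate block, 1 and 0 without nuclei of vascular or blood lists, 3 and 0 without nuclei with mural genes, 2 and 0 among genes higher in microglia than in other nuclei, and 0 to 7 (higher) and 0 to 7 (lower) when 1 sample was left out. The interaction count of 1 gene moved to 0 to 2 against astrocytes and 0 to 3 against oligodendrocytes when 1 sample was left out, and to 2 against oligodendrocytes with RLE scaling. In bulk, the 0 microglia list genes called lower became 1, *Mef2c*, at a fold change above 1.5; leaving out 1 sample gave 0 in each direction. Single genes turned sign only when a sample was left out: *AY036118* to -0.67 and *Ttr* to -6.89 without mutant replicate 2 (highest values 4.55 and 4.60), *Cx3cr1* in microglia to -0.052 without control replicate 1 (highest 0.28), and *Csf1r* in bulk to -0.03 without mutant replicate 1 and -0.054 without control replicate 2 (highest 0.071). For *Ttr*, the negative value was set by 0 UMIs in the mutant that remained. The causes of the other turns were not tested. *Csf1r*, *Wls*, *Cst3*, *Syt6*, *Apoe*, *Ubb*, *Cntnap2*, *Gm42418* and *P2ry12* in microglia kept their direction under every alternative that gave a value, but when 1 sample was left out *Gm42418*, another transcript over ribosomal RNA sequence, ran from 0.039 to 3.598 (1.37 with all samples), *Csf1r* from -1.44 to -0.015, *Wls* from -2.25 to -0.79, *P2ry12* from 0.027 to 0.28 *Ubb* from -1.68 to -0.60, *Apoe* from -1.81 to -0.87 and *Cntnap2* from 1.11 to 2.96. With the replicate block *Cst3* was -1.24 (adjusted p = 0.266) and no longer passed, and *Cntnap2* was 1.69 (adjusted p = 0.0128) and passed. In bulk the block changed no call of a microglia list gene. In mutant replicate 1, 1 UMI stood for 46.4 UPM, so a gene below that level read either 0 or at least 46.4 UPM there.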
